A study of Gallus gallus with 8 samples.

Results

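The cartilage programme was followed in 8 RNA-sequencing libraries of chick wing mesenchyme through 7 genes chosen by name, the transcription factor genes SOX9, SOX5 and SOX6 and the matrix genes COL2A1, COL9A1, ACAN and HAPLN1. Of these 7, 6 matched a transcript in the deposited tables, out of 14612 genes matched in all. SOX6 matched none and is not analysed here. Only 3 of the 6, SOX9, SOX5 and COL2A1, had enough reads to enter the test, which covered 9062 genes. The grafts, HH24g (2 libraries, labelled CMV-GFP and tissue graft), were cubes of distal wing mesoderm taken at Hamburger Hamilton stage HH20 from GFP transgenic embryos, freed of epithelium, placed beneath the apical ridge of wild type HH24 wings and collected 24 h later. The HH27 libraries (3, labelled WT and untreated) are distal wing tissue of the stage the hosts had reached, which the study took from the opposite wing of the hosts. The HH24 libraries (3, labelled WT and untreated) are ungrafted distal wing tissue of the age of the donor cells. All eggs were incubated at 37 °C, and all samples are labelled mesenchyme. Each library was made from several pieces of tissue. The grafts differ from HH27 in age, in carrying the transgene and in having been transplanted, and these cannot be told apart. The comparisons ask how far the onset of chondrogenesis follows the age of the cells.

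Cartilage of the limb begins as a condensation of mesenchyme. SOX9 is the transcription factor that commits these cells to the cartilage lineage, and SOX5 and SOX6 are its partners, which are known from mouse work to act with it on cartilage matrix genes. COL2A1 encodes the main collagen of cartilage, COL9A1 a chain of the collagen that decorates its fibrils, ACAN the large proteoglycan aggrecan, and HAPLN1 the link protein that fixes aggrecan to hyaluronan. SOX9 is switched on before most of these matrix genes are strongly expressed, and the distal tip of the wing bud holds mostly undifferentiated cells.

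Depth limits every value below. The libraries held 1697272 to 5095662 estimated reads. In 7 of them 45.5% to 67.6% of the reads matched a gene, and in HH24 replicate 2 only 9.24% did. A single unmatched transcript took 74.32% of the reads in HH24 replicate 2, and 32.92% and 24.23% in HH24 replicates 1 and 3. It took 10.15% to 26.15% in HH27, and 8.62% and 15.24% in HH24g. After TMM scaling, which sets a trimmed mean of gene-wise log ratios to 0 between libraries, HH24 replicate 2 had an effective size of 128271 reads, against 934614 to 3849969 in the others. A count of 3 reads, which is the most that a count of 0 allows, was worth 23.4 CPM (counts per 1000000 reads of effective library size) in that library and 0.779 to 3.21 CPM elsewhere. The counting intervals given below are exact two-sided 95% Poisson intervals, which for 0 reads reach somewhat higher than 3 reads (28.8 CPM in HH24 replicate 2), and both cover counting error only. Genes of limb mesenchyme were present in every group, with PRRX1 at 313 ± 7.78 CPM in HH24g (SD, n = 2), 196 ± 22.6 CPM in HH27 (n = 3) and 214 ± 41.6 CPM in HH24 (n = 3). PRRX1 does not stand for its list, since of 9 such genes 3 had a fitted change above 0 and 6 below between HH24g and HH27. TWIST1, for example, had 103 ± 7.11 CPM in HH24g and 184 ± 10.6 CPM in HH27. The leg genes TBX4 and PITX1 summed to at most 1.53 CPM in any library, and the 5 genes of the muscle lineage to at most 3.91 CPM. Ectodermal genes were present, at a summed 141 to 160 CPM in HH24g, 176 to 202 CPM in HH27 and 157 to 187 CPM in HH24. Whether those reads in HH24g came from donor or host tissue was not tested.

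SOX9 was low in the grafts and high in tissue of the age of the host. It had 6 and 11 reads in HH24g replicates 1 and 2, which is 2.99 CPM (interval 1.10 to 6.52) and 3.36 CPM (1.68 to 6.01). In HH27 replicates 1 to 3 it had 33, 12 and 77 reads, which is 12.6 CPM (8.70 to 17.8), 11.7 CPM (6.02 to 20.4) and 20 CPM (15.8 to 25). In HH24 replicates 1 to 3 it had 6, 0 and 4 reads, or 6.42, 0 and 3.91 CPM. Both grafts thus lay below all 3 HH27 libraries, a separation in this direction that 16.4% of all tested genes showed. The HH27 libraries also lay above all 3 HH24 values, as did those of 13.7% of tested genes. That order is not settled for HH24 replicate 2, where 0 reads allow up to 23.4 CPM, more than any HH27 library showed. The intervals of HH24 replicates 1 and 3 also overlap those of HH27 replicates 1 and 2. In bulk tissue fewer cells with SOX9 and less SOX9 RNA per cell cannot be told apart.

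**Figure D1:**
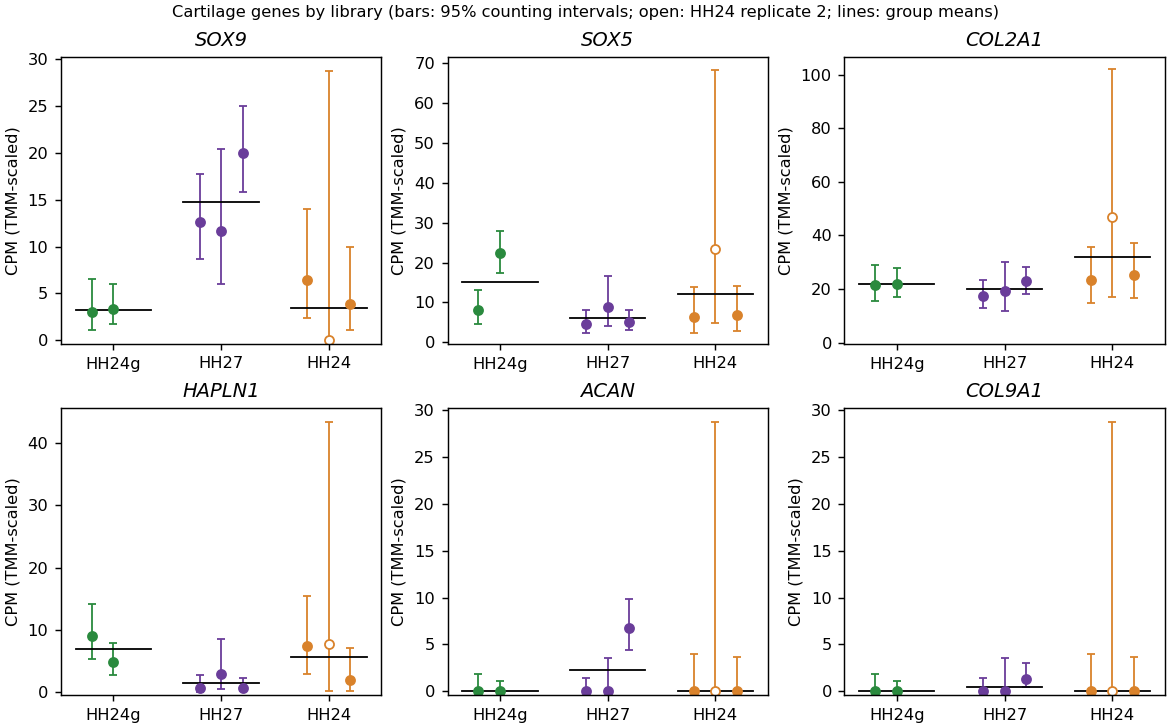
Level of each matched cartilage gene in each library, in CPM on TMM-scaled library sizes, with HH24g (2 libraries), HH27 (3) and HH24 (3) from left to right. Points are libraries, bars are exact 95% counting intervals, horizontal lines are group means, and the open point is the shallow HH24 replicate 2. SOX9 reached 11.7 to 20 CPM in HH27 and at most 3.36 CPM in HH24g, while COL2A1 lay between 17.6 and 25.4 CPM in all libraries but the open one.

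SOX9 was the 1 cartilage gene of the 3 tested that was called between HH24g and HH27, where a call needs an adjusted p-value under 0.05 and a change of more than 2-fold. Of all tested genes 1.71% were called in this comparison (1.02% higher and 0.695% lower in HH24g). The edgeR test called 1.08% and DESeq2 1.70%. SOX9 averaged 3.18 ± 0.259 CPM in HH24g (SD, n = 2) and 14.8 ± 4.56 CPM in HH27 (n = 3). Its log2 fold change was -2.23 ± 0.46 (SE, 95% interval -3.27 to -1.2, adjusted p = 0.0355, limma voom). The study had itself picked SOX9 from this graft experiment, so this call is no independent evidence of its direction. The size of the difference held when each library was left out in turn (-2.42 to -1.89), but the call did not. It was lost without HH24g replicate 1 (adjusted p = 0.136), HH24g replicate 2 (0.296), HH24 replicate 2 (0.087) or HH24 replicate 1 (0.05), and the quasi-likelihood test of edgeR did not make it (0.125). It was also lost with only HH24g and HH27 in the fit (0.12), with unmatched transcripts added (0.115) and with a block for replicate number (0.0754). The log2 fold change with that block was -1.91. Of all 18 alternatives 10 made the call. The HH24 libraries enter this comparison through the shared estimate of the spread, the scaling and the filter on low counts.

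Against HH24, tissue of their own age, the grafts gave no call for SOX9 (log2 fold change -0.63 ± 0.78, 95% interval -2.40 to 1.13, adjusted p = 0.803). The interval is wide, with only 10 reads of SOX9 over the 3 HH24 libraries, and a 2-fold difference in either direction lies inside it. Between HH27 and HH24 the log2 fold change of SOX9 was 1.60 ± 0.67 (95% interval 0.08 to 3.12, unadjusted p = 0.0407, adjusted p = 0.306), so SOX9 was not called over normal development. SOX9 averaged 3.44 ± 3.24 CPM in HH24 (SD, n = 3). The 3 comparisons share libraries, so their values are not independent of each other.

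SOX5, the partner gene, showed no such pattern. It had 16 and 73 reads in HH24g, 12, 9 and 20 in HH27 and 6, 3 and 7 in HH24. These correspond to 7.99 and 22.3 CPM in HH24g, to 4.60, 8.74 and 5.19 CPM in HH27, and to 6.42, 23.4 and 6.85 CPM in HH24. All groups overlapped, and the high values belong to HH24g replicate 2 and to the 3 reads of HH24 replicate 2. The log2 fold change was 1.52 ± 0.47 between HH24g and HH27 (95% interval 0.45 to 2.59, unadjusted p = 0.0107, adjusted p = 0.141), opposite in sign to that of SOX9, and SOX5 was not called. Without HH24g replicate 1 the change was 2.05 and was called (adjusted p = 0.0182), and without HH24g replicate 2 it was 0.60. The other contrasts gave 1.05 ± 0.60 between HH24g and HH24 (-0.32 to 2.43, with 1.57 without HH24g replicate 1 and 0.13 without HH24g replicate 2) and -0.47 ± 0.65 between HH27 and HH24 (-1.94 to 1.00). The SOX5 reads were spread over 5 matched transcripts. In HH24g replicate 2 a pair of them took 40.3 and 32.4 estimated reads, and in HH24g replicate 1 a single transcript took all 16.3.

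COL2A1 did not follow SOX9. It was the best covered of the cartilage genes, with 43 and 72 reads in HH24g, 46, 20 and 88 in HH27 and 22, 6 and 26 in HH24. Its level was 21.5 and 22.0 CPM in HH24g, 17.6, 19.4 and 22.9 CPM in HH27, and 23.5, 46.8 and 25.4 CPM in HH24. The groups HH24g and HH27 overlapped, and their log2 fold change was 0.09 ± 0.18 (95% interval -0.31 to 0.50, adjusted p = 0.841). This interval excludes a change of 2-fold in either direction, whereas that of SOX9 in the same contrast runs from -3.27 to -1.2. Every HH24 library lay above every HH27 library, as it did for 9.94% of tested genes, and above both grafts, as it did for 10.9%. The fitted differences were small, at -0.32 ± 0.22 between HH27 and HH24 (-0.82 to 0.17, adjusted p = 0.525) and -0.23 ± 0.23 between HH24g and HH24 (-0.74 to 0.29, adjusted p = 0.746). COL2A1 was thus not higher in HH27, where SOX9 was highest.

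**Figure D2:**
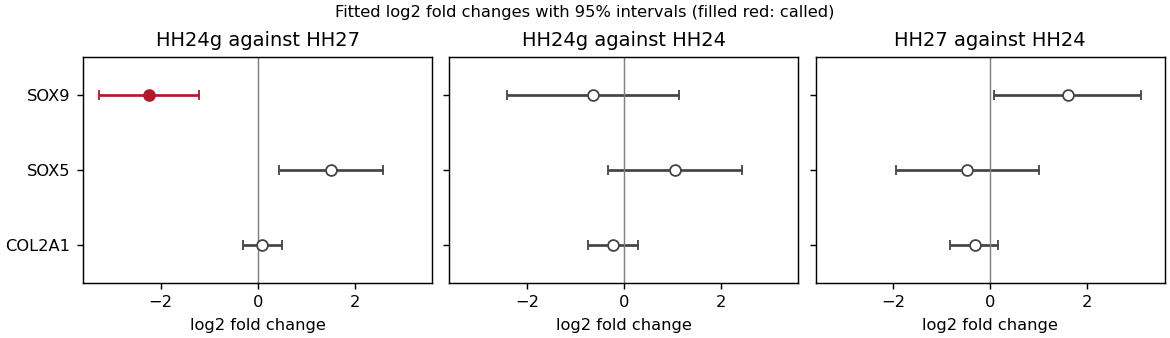
Fitted log2 fold changes of the 3 tested cartilage genes in the 3 contrasts, from limma voom on all 8 libraries. Points are estimates, bars are 95% intervals, and the filled point is the single call, SOX9 in HH24g against HH27 at -2.23. The interval of COL2A1 in that contrast runs from -0.31 to 0.50.

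In no other contrast was SOX9, SOX5 or COL2A1 called. Between HH24g and HH24, limma voom called 0 of 3, with 0 at an unadjusted p-value under 0.05 (11.3% of all tested genes), and edgeR and DESeq2 also called 0. The background there was 0.011% of tested genes with limma voom, 0.154% with edgeR and 1.32% with DESeq2. Between HH27 and HH24, limma voom again called 0 of 3, with 1 (SOX9) at an unadjusted p-value under 0.05 (15.3% of all tested genes), and edgeR and DESeq2 called 0, against a background of 1.07% with limma voom (0.463% higher and 0.607% lower in HH27), 1.19% with edgeR and 2.34% with DESeq2. The summed level of erythroid genes was 545 to 1020 CPM in HH24g and 302 to 1620 CPM in HH27, against 2730 to 3310 CPM in HH24, so red cell transcripts took a larger share of the HH24 reads. Their part in the comparisons with HH24 was not tested.

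The ratio of SOX9 to COL2A1 inside a library does not depend on how libraries are scaled to each other. Per kilobase of transcript, SOX9 stood at 0.439 and 0.478 of COL2A1 in HH24g replicates 1 and 2. In HH27 replicates 1 to 3 it stood at 2.25, 1.84 and 2.74 times COL2A1. In HH24 the ratio was 0.859 in replicate 1 and 0.480 in replicate 3, and replicate 2 had no SOX9 reads. As point estimates, all 3 HH27 libraries therefore held more SOX9 than COL2A1 per unit of length, and the 4 other libraries with SOX9 reads held less. No counting interval was computed for the ratios. Some rest on few SOX9 reads, with 6 in HH24g replicate 1, 12 in HH27 replicate 2, and 6 and 4 in HH24 replicates 1 and 3. The side of 1 on which these libraries lie is therefore not settled. On the log2 scale the ratio was -1.19 and -1.06 in HH24g and 0.88 to 1.45 in HH27. The ratio of SOX9 to SOX5 separated the same groups, at -0.88 and -2.03 in HH24g and 2.16, 1.04 and 2.55 in HH27 (log2, per kilobase), and lay at 0.66 and -0.24 in HH24 replicates 1 and 3. SOX9, which both ratios share, separated HH24g from HH27 by itself, so this ratio is no separate evidence. No test was made on these ratios, since 2 against 3 libraries cannot reach 0.05 in an exact test.

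**Figure D3:**
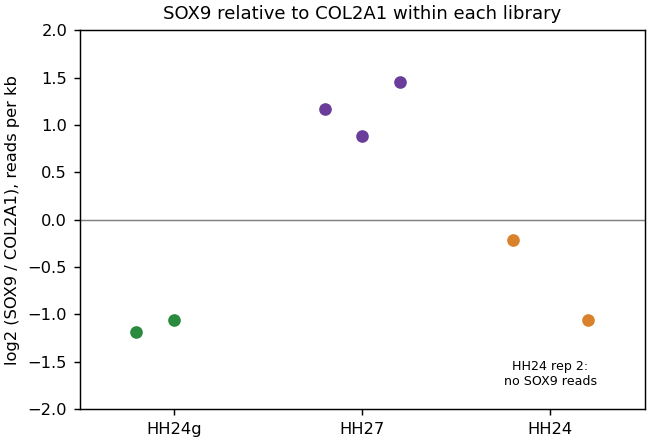
Log2 ratio of SOX9 to COL2A1 reads per kilobase of effective transcript length, 1 point per library, for HH24g, HH27 and HH24. The HH27 libraries lie at 0.88 to 1.45, above the line of equal levels, and the HH24g libraries at -1.19 and -1.06, below it. HH24 replicate 2 had no SOX9 reads and has no point. Counting error is not shown.

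The order of levels changed with SOX9. By the TPM values that the authors deposited, which account for transcript length, the order in all 3 HH27 libraries was SOX9, COL2A1 and SOX5, with HAPLN1 after them. In both HH24g libraries SOX9 was the lowest of these 4 genes. The grafts differed in which gene was highest, with HAPLN1 first in replicate 1 (5.16 TPM) and SOX5 first in replicate 2 (7.35 TPM). COL2A1 was first in HH24 replicates 1 and 3 (1.68 and 2.55 TPM), and SOX5 in replicate 2 (0.246 TPM, from 3 reads). No counting interval was computed for TPM, and many of these ranks rest on few reads. SOX9 had 6 or fewer reads in each HH24 library, and 6 and 11 in HH24g. In HH24g replicate 2 SOX9 (1.8 TPM, 11 reads) lay close to HAPLN1 (2.25 TPM, 16 reads). In HH27 replicate 2 COL2A1 (2.71 TPM, 20 reads) lay close to SOX5 (2.43 TPM, 9 reads). The order of such neighbours is therefore not settled in any group.

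The link protein gene HAPLN1 had higher values in HH24g than in HH27, the other way from SOX9, but on few reads. It had 18 and 16 reads in HH24g (8.98 and 4.89 CPM), 2, 3 and 3 reads in HH27 (0.766, 2.91 and 0.779 CPM), and 7, 1 and 2 reads in HH24 (7.49, 7.80 and 1.96 CPM). Both grafts lay above all HH27 libraries, and neither group was separate from HH24. The counting interval of HH27 replicate 2 (0.601 to 8.51 CPM) overlaps those of both grafts (5.32 to 14.2 and 2.79 to 7.94 CPM). Among the tested genes 16.3% separated in this direction. HAPLN1 itself did not pass the filter on low counts, so it has no call, and its log2 ratio of mean CPM between HH24g and HH27 was 2.22. In the fits that let it in, the log2 fold change was 2.39 with no filter, 3.08 without HH24g replicate 2 and 2.79 without HH27 replicate 2, and none called it.

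Aggrecan and the COL9A1 chain of collagen IX, which mark differentiated cartilage, had reads in a single library. ACAN had 26 reads in HH27 replicate 3 (6.75 CPM, interval 4.41 to 9.90) and 0 in each of the other 7 libraries. COL9A1 had 5 reads in HH27 replicate 3 (1.30 CPM, 0.422 to 3.03) and 0 elsewhere. For both genes the HH27 library with the most SOX9 was the only one with reads. That library was also the deepest, and 0 reads allow up to 1.15 CPM in HH27 replicate 1, 2.91 CPM in HH27 replicate 2, and 1.5 and 0.917 CPM in HH24g. Levels of COL9A1 like that of HH27 replicate 3 lie under this limit of 3 reads in HH27 replicate 2, HH24g replicate 1 and all HH24 libraries, and under the wider plotted interval in HH27 replicate 1 as well (upper end 1.41 CPM), and those of ACAN in HH24 replicate 2 alone. The other collagen IX chains, named here after their values were seen, did not share this pattern. COL9A2 had 15.5 CPM in HH24g replicate 1, 11.7 CPM in HH24 replicate 3 and 0 in the other 6 libraries (HH24g against HH27 1.74 ± 2.73, adjusted p = 0.806). COL9A3, which was not tested, had 5.99 and 5.8 CPM in HH24g, 3.83, 0.971 and 1.04 CPM in HH27, and 2.14, 0 and 0.978 CPM in HH24, so both grafts lay above all HH27 libraries. Of the tested genes 16.3% separated in this direction. Only 1 transcript of ACAN matched, and reads on transcripts outside the gene table were not counted.

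The wider cartilage programme was read from 4 further lists, chosen with results of these data known. Of their 56 matched genes 34 were tested. In HH24g against HH27, 1 was called higher and 1 lower (5.88%, against 1.71% of all tested genes), and 8 (23.5%) had an adjusted p-value under 0.05 whatever the fold (limma voom), against 3.18% of all tested genes. Of those 8, 5 were higher and 3 lower in HH24g, so the lists did not move one way. In HH24g against HH24 none of the 34 was called, and 0 passed without the fold limit. Of all tested genes only 0.011% did either there, so these counts say little about the cartilage genes. In HH27 against HH24, 1 was called lower (2.94%, against 1.07% of all tested genes), and 3 passed without the fold limit (2 lower, 1 higher), against 1.78% of all tested genes.

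Among other cartilage matrix genes (22 listed, 17 matched, 7 tested) the median log2 fold change was 0.79 in HH24g against HH27, with -0.01 over all tested genes, and 0.25 in HH27 against HH24, with 0.03 over all. The genes went both ways, 4 above 0 and 3 below in each contrast, and the median is the value of 1 gene. CRTAC1, an acidic protein of cartilage matrix, was called higher in HH24g, at 30.9 and 35.1 CPM against 19.5, 15.5 and 15.1 CPM in HH27 (log2 fold change 1.00 ± 0.16, adjusted p = 0.0133). In HH27 it was also called lower than in HH24, which had 37.4, 23.4 and 39.1 CPM (-1.19 ± 0.21, adjusted p = 0.0287). The first of these calls lies at the fold limit and was lost without HH27 replicate 2 or 3 or HH24g replicate 2 (0.84 to 1.13 over 18 alternatives, 9 of which made the call). It was also lost with edgeR (adjusted p = 0.113), with only the groups compared (0.0668) and with the replicate block (0.0844). With DESeq2, no filter or sample weights it missed the fold limit only. The second was lost without any 1 of the HH24 libraries or HH27 replicate 2 or 3 (-1.32 to -1.04 over 18 alternatives, 10 of which made the call). It was also lost with edgeR (adjusted p = 0.0629), with no filter (0.0847) and with unmatched transcripts added (0.109).

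LECT1, which encodes chondromodulin, a cartilage protein that holds off blood vessels, was higher in HH24g, at 189 and 171 CPM against 97.7, 91.3 and 115 CPM in HH27 (0.79 ± 0.12, adjusted p = 0.00896). The grafts also lay above HH24, at 80.2, 125 and 88 CPM, without a call (1.04 ± 0.15, adjusted p = 0.0737). CYTL1, a secreted protein found in cartilage, ran the other way, at 134 and 137 CPM in HH24g against 203, 276 and 206 CPM in HH27 (-0.69 ± 0.13, adjusted p = 0.0223). CYTL1 was also higher in HH27 than in HH24, where it had 117, 133 and 123 CPM (0.85 ± 0.15, adjusted p = 0.0304). Each of these changes was under 2-fold except that of LECT1 between HH24g and HH24, which was just over it. The groups named did not overlap, which many tested genes showed. HH24g lay wholly above HH27 for 16.3% of them, wholly below it for 16.4% and wholly above HH24 for 16.2%. For CYTL1, as for SOX9, all 3 HH27 libraries lay above the grafts and above HH24. Of all tested genes 13.7% had HH27 wholly above HH24.

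Of the regulators and signals (18 listed, 15 matched, 7 tested) none was called. In HH24g against HH27, 6 of the 7 had a fitted change above 0 and 1 below. Their median was 0.54, with -0.01 over all tested genes. The gene below 0 was PTHLH, at 1.5 and 1.22 CPM in HH24g against 8.81, 7.77 and 5.45 CPM in HH27. Its log2 fold change was the largest in size of the list (-2.22 ± 0.81, 95% interval -4.07 to -0.36, adjusted p = 0.211), on few graft reads. HH24 had 0, 7.8 and 2.93 CPM of PTHLH. By limma voom 5 of the 7 had an unadjusted p-value under 0.05 there, as did 17.2% of all tested genes. TRPS1, a repressor that acts in growth plate cartilage, had 159 and 180 CPM in HH24g against 88.1, 102 and 101 CPM in HH27 (0.82 ± 0.13, adjusted p = 0.0114), and in HH27 it was below HH24, at 139, 218 and 177 CPM (-0.75 ± 0.14, adjusted p = 0.0429). CREB3L2, a factor of the secretory pathway in chondrocytes that is known from mouse as a SOX9 target, had 453 and 445 CPM in HH24g against 262, 283 and 336 CPM in HH27 (0.60 ± 0.10, adjusted p = 0.0159). HH24 had 296, 304 and 323 CPM of CREB3L2, below both grafts (0.53 ± 0.12, adjusted p = 0.152), as for 16.2% of tested genes. SOX4, another SOX gene of mesenchymal progenitors, had 44.9 and 31.8 CPM in HH24g, 30.7, 26.2 and 25.2 CPM in HH27, and 51.4, 46.8 and 54.8 CPM in HH24, and was not called (adjusted p = 0.0603 between HH27 and HH24). IHH and NKX3-2, which act in maturing and early cartilage, were listed at 0 reads in all 8 libraries.

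Of the condensation genes (11 listed, 11 matched, 10 tested), 3 had a fitted change above 0 and 7 below in HH24g against HH27. Their median was -0.24, with -0.01 over all tested genes. CDH2, the N-cadherin that holds condensing cells together, was called lower in HH24g. It had 58.4 and 62.6 CPM in HH24g against 115, 147 and 133 CPM in HH27 (-1.09 ± 0.20, adjusted p = 0.0225), and the study had picked it too. The call was lost without HH27 replicate 2 or 3 or either graft library, and neither edgeR (adjusted p = 0.2), DESeq2 (0.061) nor the fit with unmatched transcripts (0.0588) made it (-1.21 to -1.04 over 19 alternatives, of which 12 made the call). FN1, the fibronectin of condensations, was lower by less than 2-fold (-0.45 ± 0.07, adjusted p = 0.0114), at 644 and 649 CPM in HH24g against 847, 892 and 911 CPM in HH27. TGFBI, a matrix protein induced by Tgf-beta, was higher, at 743 and 649 CPM in HH24g against 413, 418 and 470 CPM in HH27 (0.66 ± 0.11, adjusted p = 0.0146). HH24 had 535, 343 and 519 CPM of TGFBI, also below both grafts (0.46 ± 0.13, adjusted p = 0.235), as for 16.2% of tested genes. CDH11, an adhesion molecule of mesenchyme, differed little between HH24g and HH27 (0.07 ± 0.05, 95% interval -0.05 to 0.19).

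The genes of proteoglycan and collagen processing gave no call. Of 15 listed, 13 matched and 10 were tested, and none had an adjusted p-value under 0.05 in any contrast by limma voom. In HH24g against HH27, 3 of the 10 had an unadjusted p-value under 0.05, as did 17.2% of all tested genes. These went both ways, with ADAMTS5 higher in HH24g (1.35, 95% interval 0.30 to 2.41). P4HA2 (-1.09, -1.90 to -0.28) and CHST3 (-0.35, -0.65 to -0.06) were lower. The most abundant of the list were PLOD1, which hydroxylates collagen lysines, SERPINH1, the collagen chaperone, and P4HA1, which hydroxylates collagen prolines. Their log2 fold changes between HH24g and HH27 were -0.09 ± 0.09 for PLOD1, -0.39 ± 0.18 for SERPINH1 and -0.33 ± 0.16 for P4HA1. The 95% intervals were -0.28 to 0.10, -0.80 to 0.01 and -0.70 to 0.04.

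**Figure D4:**
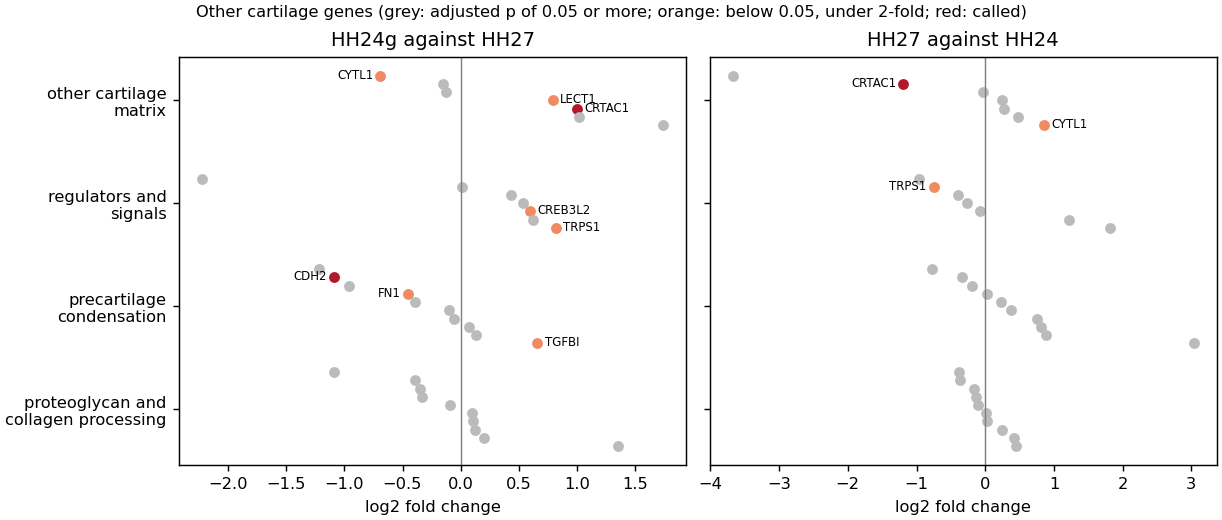
Log2 fold changes of the tested genes of 4 cartilage lists in HH24g against HH27 (left) and HH27 against HH24 (right). Each point is a gene, red points are called, orange points have an adjusted p-value under 0.05 and less than 2-fold change, and grey points have neither. CDH2 (-1.09) and CRTAC1 (1.00) are the calls on the left, in opposite directions, and CRTAC1 (-1.19) is the call on the right.

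Other genes that differed between the grafts and HH27 bear on the state of the mesenchyme. SCX, the transcription factor of tendon progenitors, was called higher in HH24g, at 29.9 and 25.4 CPM against 11.5, 7.77 and 5.45 CPM in HH27 (1.84 ± 0.28, adjusted p = 0.0109). The other tested tendon and perichondrium genes did not share this, with COL1A2 at 0.05 ± 0.11 (adjusted p = 0.865) and COL3A1 at -0.39 ± 0.12 (adjusted p = 0.144). TNMD, which was not tested, had 1.5 and 0.917 CPM in HH24g and 0 CPM in HH27. These graft values are 3 reads each, and 0 reads allow up to 1.15, 2.91 and 0.779 CPM in HH27 replicates 1 to 3. The limb patterning genes MSX2 (-1.46 ± 0.14, adjusted p = 0.00181) and HAND2 (-1.48 ± 0.27, adjusted p = 0.0225) were called lower and LHX9 (2.34 ± 0.38, adjusted p = 0.0128) higher in HH24g. Between HH27 and HH24, MSX2 was called higher (1.34 ± 0.22, adjusted p = 0.0211) and LHX9 lower (-2.11 ± 0.41, adjusted p = 0.0449). The SCX call and that of MSX2 between HH24g and HH27 held with any 1 library left out, and the other 4 were each lost without at least 2 libraries. SCX was not called by edgeR (0.0728) or with only HH24g and HH27 in the fit (0.0503), and edgeR called LHX9 in neither contrast (0.0516 and 0.0608). LHX9 lost the call in HH24g against HH27 without either graft library (adjusted p = 0.0581 and 0.079). HAND2 lost it without either graft library (0.0766 and 0.202) and, narrowly, without HH27 replicate 1 or 2 (0.0509 and 0.052). In HH27 against HH24, MSX2 was not called without HH24 replicate 1 or 3 (0.121 and 0.234), nor LHX9 without any 1 of the HH24 libraries, HH27 replicate 1 or either graft library (0.0716 to 0.234). Endothelial genes summed to 196 CPM in both grafts, 150 to 152 CPM in HH27 and 137 to 195 CPM in HH24, and their part in the cartilage results was not tested.

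The genes whose pattern was most like that of SOX9 were sought by the root mean square difference of log2 CPM, with each gene centred on its own mean over the 8 libraries. The 5 nearest were PCP4 (0.33), MSX2 (0.37), RGCC (0.40), VCAM1 (0.41) and PCOLCE2 (0.44), each in log2 units. PCP4, a small calmodulin-binding protein, had 2.12 ± 0.885 CPM in HH24g, 7.38 ± 1.26 CPM in HH27 and 1.72 ± 1.62 CPM in HH24 (SD). MSX2, a homeobox target of Bmp signals, had 45.0 ± 1.36 CPM in HH24g, 124 ± 12.1 CPM in HH27 and 39.1 ± 21.2 CPM in HH24. With HH24 replicate 2 left out, a choice made after its depth was seen, the nearest were COL6A2 (0.20), PCDH17 (0.23), PCP4 (0.25), TBXT (0.26) and MSX2 (0.27), so PCP4 and MSX2 were in both sets. The study had itself grouped MSX2 and COL6A2 with SOX9 from these libraries. The genes nearest to COL2A1 were MED1 (0.09), HDGF, SUMO2, WWC1 and CACHD1 (0.11 each). Without HH24 replicate 2 only SUMO2 was still among the 5 nearest, at rank 1, and the others fell to ranks 25 to 92. SOX9 and COL2A1 shared no gene in these sets, but their own patterns already differed, so this is no separate evidence.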

How the data were processed

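The members and gene lists were chosen with earlier results of these data known. For each library the authors deposited a table of 57399 RefSeq transcripts with estimated counts (reads divided among transcripts of like sequence) and TPM values, which also use the effective length of each transcript. The submitters' processing notes name HISAT2 2.0.2, Salmon, limma and the build galGal4. The transcript release is not given in the sources used here. The lengths of transcripts, in bases, come from the same deposited tables.

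Transcript identifiers, less their version, were looked up in a table of RefSeq genes (assembly GRCg7b, used for names only). The 26660 matched transcripts (46.4%) were summed to 14612 genes and rounded. Genes were filtered with filterByExpr (minimum count 10, minimum total 15), scaled by TMM and fitted with limma voom with 1 mean per group over all 8 libraries. TMM and voom follow the study's methods, whereas the filter and the use of all 8 libraries were chosen here. Calls needed an adjusted p-value under 0.05 (Benjamini-Hochberg over 9062 genes) and a change over 2-fold. CPM values are counts per 1000000 reads of TMM-adjusted library size, and log2 CPM used a prior count of 2. The labels number replicates and name no separate embryos, so p-values measure the spread between these libraries, which differed by more than sampling noise in all 7 replicate pairs (chi-square per degree of freedom at least 4.53). The study left out 1 graft library, and 2 graft libraries were analysed here. It also left out 1 HH24 library, which the labels do not identify, so all 3 HH24 libraries were kept.

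All 7 members are named, with the listed genes that were called in any contrast, the 3 most abundant of each cartilage list per length, and the 5 genes most like SOX9 and COL2A1. The symbol LECT1 stands for the listed CNMD. The alternatives were the quasi-likelihood test of edgeR, DESeq2, its size factors, other filters, no fold limit, sample weights, a fit restricted to both groups in question, a block for replicate number, 7 haemoglobin, mitochondrial or rRNA genes taken out, unmatched transcripts as features, and each library left out. The fits were tested on simulated data. Fits used DESeq2 1.42.0, edgeR 4.0.16 and limma 3.58.1 under R 4.3.3. Tables and plots used Python 3.11.15 with matplotlib 3.10.9, scipy 1.17.1 and pandas 2.3.3.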

Additional observations from a re-analysis of the deposited data

How the results depend on the processing

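Of the 7 cartilage genes chosen by name, 3 were tested and 1 of these (SOX9) was called between HH24g and HH27. Of all tested genes 1.71% were called there. The count was 0 with edgeR's quasi-likelihood test, with only the groups compared, with unmatched transcripts added or with the replicate block. It was 0 to 1 when single libraries were left out. Without HH24g replicate 1 the gene counted was SOX5 (log2 fold change 2.05) and not SOX9 (-2.2). The log2 fold change of SOX9 was -2.21 with edgeR, -2.22 with only the groups compared or with unmatched transcripts, and -1.91 with the replicate block (adjusted p = 0.0754). Its adjusted p ranged from 0.0132 (DESeq2) to 0.296 over 18 alternatives, 10 of which called it. In both contrasts with HH24 the count stayed at 0 in all alternatives that tested any of these 7 genes. COL2A1 between HH24g and HH27 changed sign without HH27 replicate 1 (-0.02 to 0.26 with single libraries left out). HAPLN1 between HH24g and HH24 changed sign without HH24 replicate 3, from the ratio of means of 0.27 to a fitted value of -0.37 (-0.37 to 1.03 in the 4 such fits that tested it). Without a filter HAPLN1 between HH24g and HH27 had a log2 fold change of 2.39 and was not called (adjusted p = 0.175). With at least 10 reads required in every library no cartilage gene of the 7 was left to test. The cause of these changes was not tested.

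Replicate numbers gave no sign of pairing. Deviations of same-numbered libraries from their group means correlated at -0.029 to 0.04 over genes (7 pairs), and those of other pairs at -0.045 to 0.037. With only 2 graft libraries, their deviations are mirror images. Any library of another group therefore correlates with both grafts at values that differ only in sign, so the check cannot decide whether hosts were shared. The labels do not say that a number marks shared hosts.

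Over all genes, 155 were called between HH24g and HH27 (98 with edgeR, 34 with 10 reads in every library, 288 without a fold limit, 94 without HH24g replicate 2). Between HH24g and HH24 it was 1 gene (0 to 120, the highest with DESeq2). Between HH27 and HH24 it was 97 (212 with DESeq2, 42 with 10 reads in every library, 161 without a fold limit, 36 with unmatched transcripts, 21 to 93 with single libraries left out). SOX9 values in HH24 rest on 10 reads, so differences from HH24 were not detectable at this depth unless large.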

Other observations

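Among listed cartilage genes with too few reads to test, 2 were picked after their values were seen. CILP, a protein of cartilage intermediate layers, had 4.49 and 9.78 CPM in HH24g, 0.766, 0 and 0.779 CPM in HH27 and 0 reads in all 3 HH24 libraries. PAPSS2, which supplies sulfate for proteoglycans, had 4.49 and 2.14 CPM in HH24g, 8.05, 5.83 and 2.6 CPM in HH27 and 0 reads in all 3 HH24 libraries. In HH24 replicates 1 to 3 a count of 0 allows up to 3.21, 23.4 and 2.93 CPM, and only the limits in replicates 1 and 3 lie below the higher of these levels. Neither gene was tested.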
